A study of Mus musculus with 8 samples.

Results

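The 10 MHC class I presentation genes were H2-K1, H2-D1, B2m, Tap1, Tap2, Tapbp, Psmb8, Psmb9, Psmb10 and Nlrc5, taken by symbol from the 33696 genes of the count matrices, and all 10 were found. They were followed through 7 kinds of cells in brain tumours of EPZFTA-RELA mice (NestinCreERT2;Fus1;RFPTdT), an ependymoma model in which the ZFTA-RELA fusion is switched on in Nestin-expressing radial glia. All mice carried the tumour and, at 3 weeks, were allotted at random to 1 intrathecal dose of mavrilimumab (5 mg/kg), which binds the GM-CSF receptor through its alpha subunit, or of a control antibody (vehicle IgG). Tumour and brain tissue from mice 6 to 8 weeks old was dissociated, stained for the leukocyte marker CD45 and the erythroid marker Ter119, sorted, and profiled by droplet single-cell RNA sequencing. The study places this profiling of treated mice at recurrence. Whether the time since dosing differed between the treatments was not tested. There were 4 gene expression libraries, 2 per treatment, and the labels do not say how many mice each held (the study describes pooled tumours). Treatment p-values within 1 kind of cell therefore measure the spread between these libraries only. P-values for differences between kinds of cells, and for how these vary with treatment, come from fits with library as a block. They measure only the spread that remains within these libraries. The labels name neither the strain nor the H2 haplotype, and every group carried the tumour genotype, so no tumour-free brain entered any comparison.

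MHC class I molecules show fragments of a cell's own proteins to CD8 T cells. Proteins are cut by the proteasome, whose catalytic subunits Psmb5, Psmb6 and Psmb7 can be replaced by the immunoproteasome subunits Psmb8, Psmb9 and Psmb10. The TAP transporter, made of Tap1 and Tap2, carries the peptides into the endoplasmic reticulum, where tapasin (Tapbp) helps to load them onto a heavy chain such as H2-K1 or H2-D1 joined to beta-2-microglobulin (B2m). Nlrc5 is a transactivator of this set of genes, which interferons also induce. The brain is known for low class I levels in neural cells and higher levels in leukocytes.

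The matrices summed to 24354457 unique molecular identifiers (UMIs, 1 per captured RNA molecule) in vehicle IgG 1, 148657643 in vehicle IgG 2, 35785802 in mavrilimumab 1 and 87127346 in mavrilimumab 2, and 984, 26746, 6412 and 5490 cells were kept, with a median of 3296 to 11759 UMIs per cell. Cells were assigned by gates on genes outside the list: CD8 T and CD4 T cells, natural killer (NK) cells, B cells, microglia, monocytes, and neural or tumour cells (no Ptprc UMI, and Nnat and Mdk together at 3 or more). CD8 T cells numbered 66, 1733, 1937 and 1771 in these libraries, CD4 T cells 98, 113, 1697 and 398, and microglia 561, 359, 204 and 679. NK cells, B cells and monocytes reached 20 cells in vehicle IgG 2 and both mavrilimumab libraries only. Neural or tumour cells reached it in vehicle IgG 2, with 15569 cells, and mavrilimumab 2, with 419. All 7 neural markers on the list (Nnat, Mdk, Sox2, Sox11, Ptn, Fabp7 and Tubb3) were detected in both, and the gate does not separate tumour from normal neural cells. The study describes a sort for extravascular CD45+ cells, which should leave few cells without Ptprc, the gene of CD45, yet neural or tumour cells made up 58.2% of the kept cells of vehicle IgG 2 and 7.63% of those of mavrilimumab 2. The level of a gene in them is that of cells that came through this sort. Counts were summed per library and cell group, giving 23 sums, and levels are in CPM, the UMIs of a gene scaled to the same total in every sum. All markers listed for a group were detected in each of its sums. Reads of H2-K1, H2-D1 and the related H2-Q and H2-T genes can be split between near-identical copies, so the levels of single heavy chains are uncertain.

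The labels of the libraries could not be fully reconciled with the matched T cell receptor (TCR) libraries. The sample names inside 3 of the 3 TCR tables analysed gave the other treatment than their labels. The TCR library labelled vehicle IgG 2 was not among them. The TCR library labelled mavrilimumab 1 shared 2491 of its 2749 cell barcodes with the expression cells of mavrilimumab 2 and 2 with those of mavrilimumab 1. The TCR library labelled mavrilimumab 2 shared 4867 of 5659 barcodes with the expression library labelled mavrilimumab 1, and that labelled vehicle IgG 1 shared 182 of 193 with its namesake. Expression libraries shared 0 to 60 barcodes with each other. All treatment directions here follow the labels of the expression libraries. CD8 T cells made up 6.71% and 6.48% of the kept vehicle IgG cells there, and 30.2% and 32.3% of the kept mavrilimumab cells. These shares depend on which other cells were kept, so they do not check the labels. In vehicle IgG 1, vehicle IgG 2, mavrilimumab 1 and mavrilimumab 2, neural or tumour cells made up 0.407%, 58.2%, 0.0312% and 7.63%. Microglia made up 57.0%, 1.34%, 3.18% and 12.4% in the same order.

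The promoters of the heavy chains, B2m and Tap1 are shown because these genes were all lower in neural or tumour cells than in every immune group and share kinds of motif. RefSeq windows on GRCm38.p6, the assembly that mm10 names, ran from 250 bases before to 50 after an annotated start. They were found for 8 of the 10 genes and not for Tap2 and Nlrc5. H2-K1 had 2 windows, and the 1 shown lies inside the gene's annotated span of chr17:33996012-34000619. The other, at chr17:34000284-34000583, held the same motifs. Capitals mark, on either strand, an interferon-response (IRF) type motif (GAAANNGAA or GAANNGAAA), an NF-kB type motif (GGGATTCCC), a CRE-type motif (TGACG) and a CCAAT box, all of which were chosen after the windows were seen. H2-K1 lies on the minus strand at chr17:34000298-34000597, H2-D1 on the plus strand at chr17:35262844-35263143, B2m on the plus strand at chr2:122147437-122147736, and Tap1 on the plus strand at chr17:34187306-34187605.
H2-K1: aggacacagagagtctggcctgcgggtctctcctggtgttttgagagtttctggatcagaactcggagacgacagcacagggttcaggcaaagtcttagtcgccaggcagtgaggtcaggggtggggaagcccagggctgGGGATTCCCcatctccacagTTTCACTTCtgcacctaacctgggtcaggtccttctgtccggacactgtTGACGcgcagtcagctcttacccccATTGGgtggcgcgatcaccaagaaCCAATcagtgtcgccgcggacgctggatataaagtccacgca
H2-D1: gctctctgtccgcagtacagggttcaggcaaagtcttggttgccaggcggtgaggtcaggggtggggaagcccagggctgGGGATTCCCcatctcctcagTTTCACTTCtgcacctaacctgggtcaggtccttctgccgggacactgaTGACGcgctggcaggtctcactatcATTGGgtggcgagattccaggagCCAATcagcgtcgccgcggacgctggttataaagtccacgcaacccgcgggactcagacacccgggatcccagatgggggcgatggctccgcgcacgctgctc
B2m: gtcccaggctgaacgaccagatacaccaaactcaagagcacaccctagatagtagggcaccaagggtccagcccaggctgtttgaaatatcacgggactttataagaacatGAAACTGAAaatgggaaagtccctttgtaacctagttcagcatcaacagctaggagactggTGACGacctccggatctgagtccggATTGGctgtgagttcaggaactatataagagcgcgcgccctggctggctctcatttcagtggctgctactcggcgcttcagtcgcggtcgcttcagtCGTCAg
Tap1: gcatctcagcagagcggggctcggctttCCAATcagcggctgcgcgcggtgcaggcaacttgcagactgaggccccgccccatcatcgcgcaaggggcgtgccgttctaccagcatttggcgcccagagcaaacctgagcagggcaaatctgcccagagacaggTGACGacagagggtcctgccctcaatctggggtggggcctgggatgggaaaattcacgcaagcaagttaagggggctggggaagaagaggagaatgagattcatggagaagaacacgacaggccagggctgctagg

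H2-K1 and H2-D1 shared 176 of 240 bases (73.3%) in an ungapped alignment of their windows, with a longest common run of 47 bases. In both, the NF-kB type motif began 20 bases before the IRF-type motif, which began 49 bases before the CRE-type motif. Among 32851 windows of the same length, the IRF-type motif was present in 14.8% and, among the members, in B2m, H2-D1 and H2-K1. The NF-kB type motif was present in 0.353% of windows, and in H2-D1 and H2-K1. The CRE-type motif, present in 20.8% of windows, was found in B2m, H2-D1, H2-K1, Psmb9 and Tap1, and the CCAAT box, present in 37.4%, in these and in Tapbp. Psmb8 and Psmb10 held none of these letters. Tap1 and Psmb9 are divergent neighbours whose windows share 275 bases on opposite strands. Of the 10 genes, 7 lie on chromosome 17, in or near the MHC, B2m lies on chromosome 2, and Psmb10 and Nlrc5 lie on chromosome 8.

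Class I presentation genes were lowest in neural or tumour cells. For 9 of the 10 genes, every one of the 21 immune sums lay above the higher of the 2 neural sums, and Tapbp was the exception, with 10 of 21. Over all genes tested, 3.92% had every immune sum above both neural sums. H2-K1, a classical heavy chain, stood at 271 CPM in the neural or tumour cells of vehicle IgG 2 and 509 in those of mavrilimumab 2, against 869 (lowest), 2660 (median) and 5540 (highest) over the immune sums. H2-D1, the other heavy chain, was at 238 and 480 CPM against 1353, 2732 and 4059. B2m, the light chain, was at 560 and 889 CPM against 2165, 4543 and 7675. The neural and immune sums of all 3 chains did not overlap.

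Peptide transport and loading divided into TAP and tapasin. Tap1 was at 9.59 and 34.7 CPM in neural or tumour cells, against 40.9, 124 and 298 over the immune sums. Tap2 was at 17.3 and 47.1 CPM against 56.2, 115 and 282. Tapbp was at 95.4 and 188 CPM against 90.7, 183 and 385, so that its neural levels lay inside the immune range. The immunoproteasome followed TAP: Psmb8 was at 31.7 and 71.9 CPM in neural or tumour cells against 172, 501 and 1093. Psmb9 stood at 13.4 and 22.3 CPM against 87.8, 244 and 524, and Psmb10 at 49.0 and 89.3 against 92.2, 174 and 422. The margin for Psmb10 was narrow, with the lowest immune value next to the higher neural one. Nlrc5 was at 7.45 and 14.9 CPM against 24.3, 96.8 and 377.

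**Figure D1:**
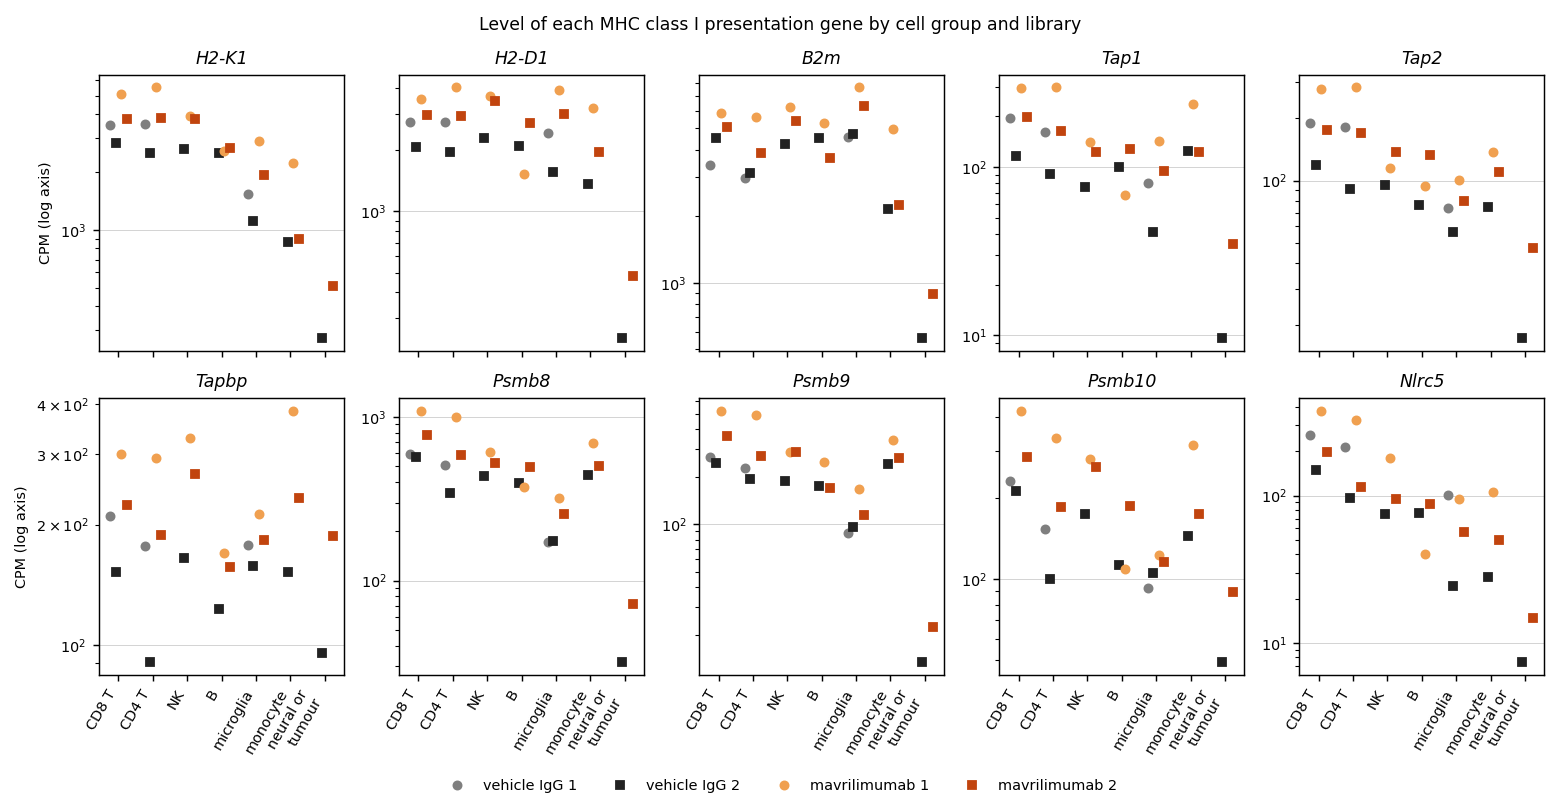
Level of each gene in CPM (log axis) in the 7 cell groups, 1 point per library with at least 20 cells of the group. Neural or tumour cells lie below every immune point for 9 of 10 genes, and inside the immune range for Tapbp.

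Among immune cells the order of the mean log2 levels depended on the gene. CD8 T cells came first for H2-K1, Tap1, Tap2, Psmb8, Psmb9, Psmb10 and Nlrc5, NK cells for H2-D1 and Tapbp, and microglia for B2m, while neural or tumour cells came last for all 10. Microglia came next to last for Tap1, Tap2, Psmb8, Psmb9 and Psmb10, and monocytes for H2-K1, H2-D1, B2m and Nlrc5. Most neighbours in these orders overlapped between libraries. Beside the step down to neural or tumour cells, the B cell values lay above all microglia values for Psmb8 (372 to 493 CPM against 172 to 319) and for Psmb9 (169 to 248 against 87.8 to 167).

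Each immune group was compared with neural or tumour cells in 1 edgeR quasi-likelihood fit over all sums, with library as a block and Benjamini-Hochberg adjustment over 14004 genes. CD8 T cells had 9 of the 10 genes higher at a false discovery rate (FDR) of 0.05, against 20.0% of all genes tested. CD4 T cells had 9 (19.6% of all genes), NK cells 9 (16.4%), B cells 9 (17.9%), microglia 9 (20.4%) and monocytes 10 (18.5%). The median log2 fold change of the 10 genes was 3.10 in CD8 T cells, 2.89 in CD4 T cells, 2.79 in NK cells, 2.78 in B cells, 2.21 in microglia and 2.10 in monocytes, beside medians of -0.33 to -0.16 over all genes.

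The size of the difference varied between genes, also between genes of the same role, and roles were not tested against each other. The heavy and light chains were higher by 2.75 to 3.23 on the log2 scale in CD8 T cells and by 2.17 to 3.06 in microglia. In monocytes they ranged from 1.61 ± 0.28 (SE) for H2-K1 to 2.57 ± 0.22 for H2-D1. Tap1 was higher by 3.21 ± 0.30 in CD8 T cells and 2.03 ± 0.29 in microglia, and Tap2 by 2.55 ± 0.26 and 1.31 ± 0.25. Psmb9 showed the highest value of the list in 5 of the 6 comparisons, from 3.64 ± 0.34 in NK cells to 4.25 ± 0.35 in CD8 T cells, and B2m in microglia, at 3.06 ± 0.33. Psmb10 differed less than its partners, by 0.76 ± 0.23 in microglia (edgeR adjusted p = 0.0155) to 2.06 ± 0.25 in CD8 T cells. Its call in microglia was lost without vehicle IgG 2 (0.62, edgeR adjusted p = 0.113) and without mavrilimumab 2 (0.84, 0.124). Nlrc5 was higher by 4.12 ± 0.34 in CD8 T cells and 2.22 ± 0.34 in monocytes.

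Tapbp showed the lowest difference of the list in every group. Its log2 fold change was 0.56 ± 0.26 in CD8 T cells (edgeR adjusted p = 0.0838), 0.16 ± 0.26 in CD4 T cells (0.66), 0.60 ± 0.27 in NK cells (0.0825), 0.39 ± 0.27 in B cells (0.273) and 0.36 ± 0.26 in microglia (0.268). It passed only in monocytes, at 0.74 ± 0.27 (edgeR adjusted p = 0.0377), and lost this call under 5 alternatives, with adjusted p of 0.0585 to 0.151. Conversely it passed in CD8 T cells under 5 alternatives and in NK cells under 4.

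**Figure D2:**
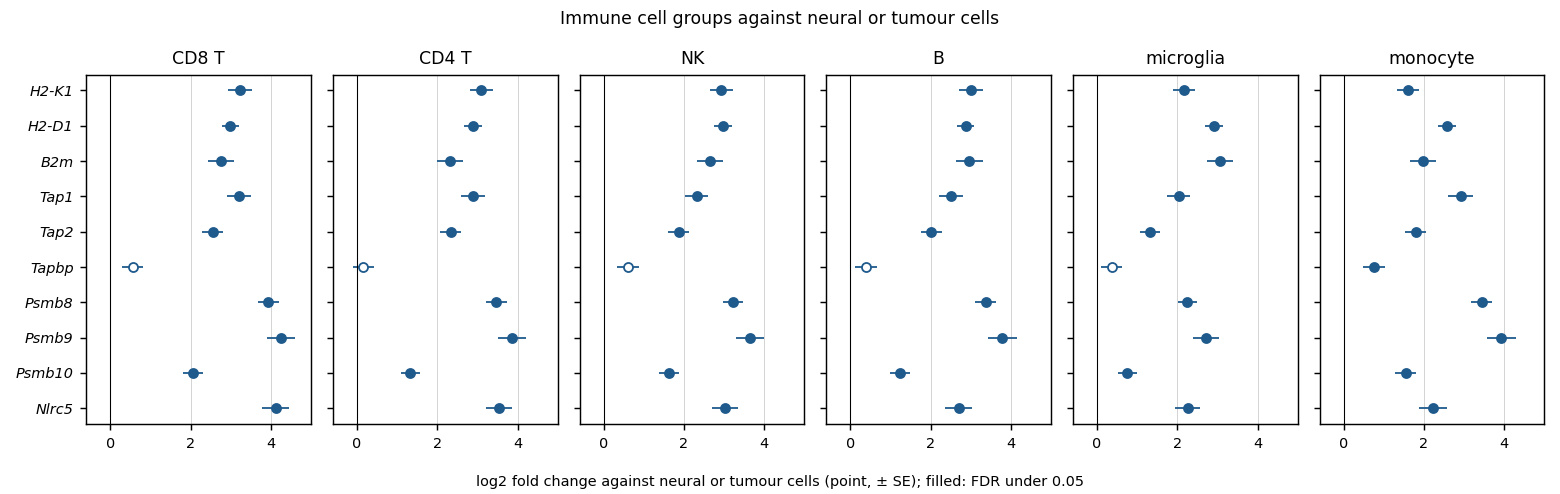
Log2 fold change of each gene in 6 immune groups against neural or tumour cells (point, with its SE), filled where the FDR was under 0.05. All 10 genes lie to the right of 0 in all 6 panels, and Tapbp lies nearest to it.

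The same differences were read within single libraries, where cells shared their handling. CD8 T cells had 10.5 times the H2-K1 level of neural or tumour cells in vehicle IgG 2 and 7.45 times in mavrilimumab 2. The ratios were 8.03 and 5.71 for B2m, 12.1 and 5.73 for Tap1, 17.9 and 10.8 for Psmb8, and 20.0 and 13.4 for Nlrc5. For Tapbp they were 1.59 and 1.19. In both libraries Nlrc5, Psmb9 (18.3 and 16.3) and Psmb8 had the highest ratios of the 10 genes, and Psmb10 (4.31 and 3.19) and Tapbp the lowest.

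Microglia, the resident macrophages of the brain, and monocytes, which enter from the blood, had different profiles of the pathway. B2m was higher in microglia by 1.08 ± 0.26 on the log2 scale (edgeR adjusted p = 0.00542), while Psmb8, Psmb9, Psmb10 and Tap1 were lower. Psmb8 fell by 1.19 ± 0.19 (edgeR adjusted p = 0.000266), Psmb9 by 1.22 ± 0.25 (0.00212), Psmb10 by 0.78 ± 0.21 (0.0103) and Tap1 by 0.89 ± 0.24 (0.0115). H2-K1 (0.57 ± 0.22), H2-D1 (0.34 ± 0.17), Tap2 (-0.48 ± 0.22), Tapbp (-0.38 ± 0.23) and Nlrc5 (0.03 ± 0.27) did not pass, so 5 of 10 passed, against 24.9% of all genes in either direction. The call for B2m was lost in 4 alternatives (edgeR adjusted p of 0.0591 to 0.0816), among them without vehicle IgG 2 and without mavrilimumab 2. Psmb10 also lost its call without mavrilimumab 2, leaving 3 genes. The monocyte gate held neutrophil RNA: the summed level of the neutrophil markers S100a8, S100a9, Retnlg and Csf3r was 16111 CPM in vehicle IgG 2, 122 in mavrilimumab 1, where S100a8, S100a9 and Retnlg were at 0, and 55518 in mavrilimumab 2. Without cells with 10 or more UMIs of S100a8 and S100a9, the same 5 genes passed, as did 3341 of the 13937 genes tested.

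CD8 and CD4 T cells were close. All 10 genes were higher in CD8 T cells in the fitted values, from 0.10 ± 0.15 for H2-D1 to 0.73 ± 0.18 for Psmb10 (edgeR adjusted p = 0.0592), and 0 passed with edgeR, where 1.44% of all genes did and 1487 genes had an unadjusted p under 0.05. DESeq2 called 1 member, Psmb10, and 3.31% of all genes, and limma-voom 2, Psmb10 and Nlrc5, and 6.86% of all genes.

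The immunoproteasome share sets each inducible subunit against the constitutive subunit it replaces, as a percentage of their joint UMIs, and so does not depend on the other genes of the sum. Psmb8 made up 83.7%, 77.0%, 87.1% and 83.3% of Psmb8 and Psmb5 in the CD8 T cells of vehicle IgG 1, vehicle IgG 2, mavrilimumab 1 and mavrilimumab 2. In neural or tumour cells it made up 12.99% (95% exact binomial interval 12.5 to 13.5) in vehicle IgG 2 and 26.4% (23.1 to 30.0) in mavrilimumab 2. The intervals cover counting error only. Psmb9 made up 58.9% to 76.1% of Psmb9 and Psmb6 in CD8 T cells, and 5.02% (4.71 to 5.33) and 8.50% (6.45 to 11.0) in neural or tumour cells. Psmb10 made up 64.0% to 82.6% of its pair with Psmb7 in CD8 T cells, and 20.6% (20.0 to 21.2) and 36.0% (32.2 to 40.0) in neural or tumour cells. Microglia lay between, at 57.9% to 72.0% for Psmb8, 37.5% to 53.9% for Psmb9 and 48.3% to 60.9% for Psmb10. For Psmb8, every immune sum lay above 50% and both neural or tumour sums below it. For Psmb9 the microglia of vehicle IgG 2 (37.5%) and mavrilimumab 2 (44.9%) also fell below, and for Psmb10 the CD4 T cells, B cells, microglia and monocytes of vehicle IgG 2 (37.9%, 39.5%, 48.3% and 46.6%).

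**Figure D3:**
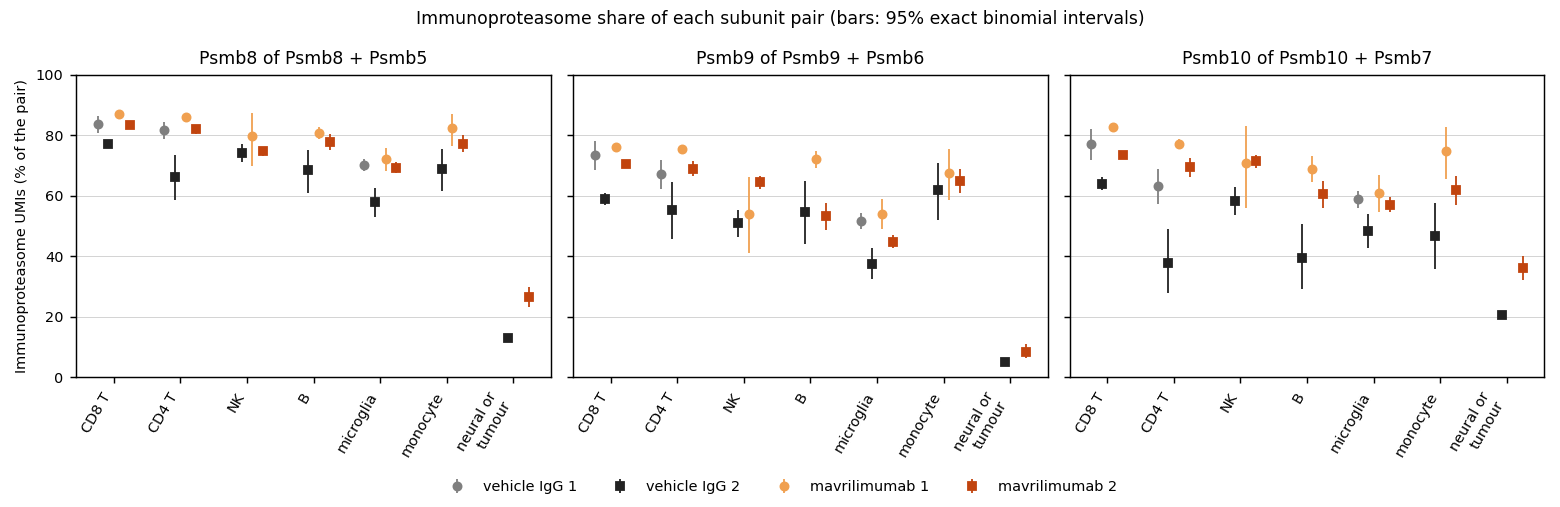
Share of immunoproteasome UMIs (%) in each subunit pair by cell group and library, with 95% exact binomial intervals. Neural or tumour cells lie lowest in all 3 panels, at 5.02% to 36.0%.

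Per cell, UMIs of the list were sparse in neural or tumour cells. The 10 genes together gave a median of 10.3, 11.7, 17.9 and 13.3 UMIs per 1000 in the CD8 T cells of vehicle IgG 1, vehicle IgG 2, mavrilimumab 1 and mavrilimumab 2, and 0.725 and 1.38 per 1000 in the neural or tumour cells of vehicle IgG 2 and mavrilimumab 2. No UMI of any of the 10 genes was seen in 2710 of 15569 neural or tumour cells (17.4%) of vehicle IgG 2 and 49 of 419 (11.7%) of mavrilimumab 2. No CD8 T cell lacked all 10. B2m had a UMI in 98.5% to 99.7% of CD8 T cells, and in 64.1% (63.3 to 64.9) and 69.5% (64.8 to 73.8) of neural or tumour cells. With every cell thinned to 1000 UMIs these shares were 91.1% to 98.5%, and 32.3% and 44.0%. Median depth was 2715 to 14487 UMIs in the CD8 T cells and 4000 and 3492 in the neural or tumour cells.

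Free RNA in the droplets was gauged by Trbc2, a T cell receptor chain that neural cells lack. It had a UMI in 0.321% and 0.239% of the neural or tumour cells of vehicle IgG 2 and mavrilimumab 2, against 34.4% to 90.9% of CD8 T cells. Nlrc5, the sparsest of the 10 genes, had a UMI in 2.97% (2.71 to 3.25) and 3.58% (2.02 to 5.84) of these neural or tumour cells, and Tap1 in 3.98% (3.67 to 4.29) and 9.31% (6.70 to 12.5). Trbc2 gauges RNA from T cells alone, not from microglia or other cells. Barcodes with at most 100 UMIs, which are mostly empty droplets, had higher levels of the 10 genes than the neural or tumour cells of the same library, except for Tapbp and Psmb10 in vehicle IgG 2. Their B2m level was 1066 CPM in vehicle IgG 2 and 2783 in mavrilimumab 2, their H2-K1 level 492 and 1709, their Tap1 level 19.3 and 98.5 and their Nlrc5 level 37.8 and 81.1. The share of free RNA in the neural or tumour cells depended on the marker list used to estimate it, from 7.76% to 67.2% in vehicle IgG 2 and from 1.82% to 56.2% in mavrilimumab 2. Subtracting the lowest share left B2m at 517 and 853 CPM. The higher shares, which would leave less, were not subtracted. How much of the level in neural or tumour cells is their own RNA was not tested.

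**Figure D4:**
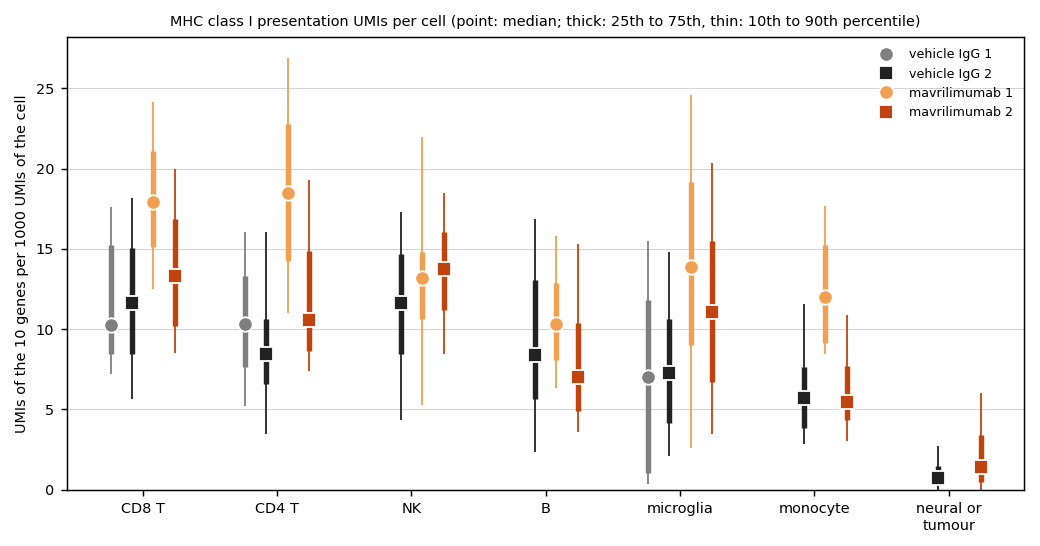
UMIs of the 10 genes per 1000 UMIs of the cell, by cell group and library (point, median; thick bar, 25th to 75th percentile; thin bar, 10th to 90th percentile). Neural or tumour cells had medians of 0.725 and 1.38, and the 10th percentile was 0 in both libraries.

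Neural or tumour cells could be compared between treatments only as 1 library against 1, so there is no replicate check, no test, and the intervals cover counting error only. All 10 genes had higher CPM in mavrilimumab 2 than in vehicle IgG 2, as did 42.7% of all genes tested. The free RNA of mavrilimumab 2 was also richer in these genes, as given above for B2m, H2-K1, Tap1 and Nlrc5, and its part in the ratios was not tested. The ratio was 1.88 (95% exact interval 1.77 to 1.99) for H2-K1, 2.02 (1.90 to 2.14) for H2-D1 and 1.59 (1.52 to 1.66) for B2m. Tap1, on 84 and 700 UMIs, had the highest ratio at 3.62 (2.85 to 4.55), followed by Tap2 at 2.73 (2.23 to 3.31), with Tapbp at 1.97 (1.78 to 2.16). The immunoproteasome genes gave 2.27 (1.93 to 2.64) for Psmb8, 1.67 (1.24 to 2.19) for Psmb9 and 1.82 (1.58 to 2.09) for Psmb10. Nlrc5, on 36 and 544 UMIs, gave 2.00 (1.38 to 2.80).

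Of 5 microglia markers, 4 were also higher in these cells of mavrilimumab 2, all at low levels. P2ry12, a purinergic receptor that defines microglia, was at 1.15 CPM in the neural or tumour cells of vehicle IgG 2 and 4.13 in those of mavrilimumab 2, against 1703 and 2074 in the microglia of the same libraries. P2ry12 and Tmem119 are the genes of the microglia gate, and cells passing both gates were left out. The selection itself therefore keeps these 2 genes low in neural or tumour cells. Siglech was at 0.356 and 2.48 CPM, Gpr34 at 0.411 and 2.89 and Tmem119 at 15.7 and 20.3, while Sall1, at 52.9 and 43.8, was lower. In the cells with no UMI of these 5 markers (11611 and 296 cells, chosen after the data were seen), 8 of the 10 genes were higher in mavrilimumab 2. The share over all genes was not computed for these cells. The ratios there were 1.56 (1.42 to 1.70) for H2-K1, 1.90 (1.74 to 2.07) for H2-D1, 1.57 (1.48 to 1.67) for B2m and 2.07 (1.63 to 2.58) for Psmb8. Tap1 fell to 1.95 (1.23 to 2.97), Psmb9 to 0.958 (0.544 to 1.57) and Nlrc5 to 0.805 (0.345 to 1.60), the last 2 on 16 and 8 UMIs in mavrilimumab 2. Other marker lists differed too. The 4 oligodendrocyte markers summed to 863 CPM in vehicle IgG 2 and 150 in mavrilimumab 2, the NK markers to 16.3 (6 of 6 detected) and 44.6 (5 of 6, with Ncr1 at 0), the 4 erythroid markers to 10.7 and 49.2, and the 5 T cell markers to 14.3 and 18.2. Their part in the ratios was not tested.

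Within immune cells, mavrilimumab and vehicle IgG were compared over the library sums of each group, 2 against 2 in CD8 T cells, CD4 T cells and microglia, and 1 against 2 in NK cells, B cells and monocytes. In CD8 T cells, H2-K1 was at 3526 and 2845 CPM in the vehicle IgG libraries and 5116 and 3793 in the mavrilimumab libraries. B2m was at 3426 and 4497 CPM against 5884 and 5080, and Psmb9 at 267 and 244 against 524 and 364. Tap1 was at 196 and 116 CPM against 294 and 199, and Nlrc5 at 259 and 149 against 377 and 199. For H2-K1, B2m, Psmb9 and Tap1 both mavrilimumab libraries lay above both vehicle IgG libraries, by little for Tap1, and for Nlrc5 the groups overlapped. In CPM, 8 of the 10 genes were higher in mavrilimumab with no overlap, against 14.4% of all genes. Mavrilimumab 1 was the highest library for all 5.

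In CD4 T cells H2-K1 was at 3557 and 2516 CPM in the vehicle IgG libraries and 5540 and 3825 in the mavrilimumab libraries, and Psmb10 at 153 and 99.8 against 335 and 186, with no overlap for either. Here too 8 of the 10 genes were higher in mavrilimumab with no overlap in CPM, against 12.3% of all genes.

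None of these differences passed the edgeR test. In CD8 T cells the fitted log2 fold change ran from 0.49 ± 0.26 for H2-D1 to 0.84 ± 0.24 for Psmb9 (edgeR adjusted p = 0.914 for both), and 3 genes, Psmb8, Psmb9 and Psmb10, had an unadjusted p under 0.05. In CD4 T cells it ran from 0.51 ± 0.57 for Nlrc5 to 1.06 ± 0.36 for Psmb10 (edgeR adjusted p = 0.999833 for both), with the same 3 genes under 0.05 unadjusted. Over all genes, 0% passed in either group, with 549 and 279 genes at an unadjusted p under 0.05. DESeq2 and limma-voom called 0 of the 10 genes in both. In CD4 T cells the median of the 10 genes was 1.27 without vehicle IgG 1, 0.54 without vehicle IgG 2 and 0.50 without mavrilimumab 1, against 0.81 with all libraries.

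Microglia gave the same direction with a wider range between genes. H2-K1 was at 1542 and 1106 CPM in the vehicle IgG libraries and 2894 and 1938 in the mavrilimumab libraries, and Tap1 at 80.0 and 40.9 against 142 and 94.1. In CPM, 9 of the 10 genes were higher in mavrilimumab with no overlap, against 12.6% of all genes. Nlrc5, at 101 and 24.3 against 95.5 and 56.8 CPM, was the exception. The log2 fold change ran from 0.30 ± 0.26 for Tapbp to 1.01 ± 0.44 for Tap1 (edgeR adjusted p = 0.999 for both). Over all genes 0% passed, with 354 at an unadjusted p under 0.05, among them B2m, H2-D1, H2-K1 and Psmb8. DESeq2 and limma-voom called 0 of the 10. Without vehicle IgG 1, which left 1 vehicle library, 6 genes passed (B2m, H2-D1, H2-K1, Nlrc5, Psmb8 and Tap1), at log2 fold changes of 0.67 to 1.70 and edgeR adjusted p of 0.00205 to 0.0424. In that fit 1473 of all genes passed, 413 higher (3.54%) and 1060 lower.

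In NK cells all 10 genes were higher in CPM in both mavrilimumab libraries than in vehicle IgG 2, as were 25.1% of all genes. H2-D1 was at 2281 CPM in vehicle IgG 2 against 3690 and 3471, and Tapbp at 165 against 329 and 268. The log2 fold change ran from 0.36 ± 0.37 for Psmb8 (edgeR adjusted p = 0.926) to 0.82 ± 0.40 for Tapbp (0.282), and 0 of the 10 passed, where 10.5% of all genes did, 62 higher and 1140 lower. H2-D1 and Tapbp had an unadjusted p under 0.05. DESeq2 called 0 of the 10 and limma-voom 7 (B2m, H2-D1, H2-K1, Psmb10, Psmb9, Tap1 and Tapbp), all higher, where it called 510 of all genes higher (4.47%) and 2111 lower. Mavrilimumab 1 held 20 NK cells, and the vehicle side is the lone library vehicle IgG 2.

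B cells and monocytes gave 0 calls among the 10 genes with edgeR, DESeq2 and limma-voom, and 0 at an unadjusted p under 0.05. In B cells Tap2 was at 76.3 CPM in vehicle IgG 2 against 93.6 and 132 in the mavrilimumab libraries. The log2 fold change ran from 0.19 ± 0.53 for Nlrc5 to 1.16 ± 0.70 for Tap2 (edgeR adjusted p = 0.999 for both), and 0% of all genes passed, with 378 at an unadjusted p under 0.05. The summed level of the B cell markers, most of it Ighm, differed between these libraries, at 1881 CPM in vehicle IgG 2, 50849 in mavrilimumab 1 and 3902 in mavrilimumab 2. The B cell gate also held T cell RNA, with the 5 T cell markers, all detected, at 587 CPM in vehicle IgG 2, 156 in mavrilimumab 1 and 1130 in mavrilimumab 2. The part of both marker lists in the fitted values was not tested, and in plain CPM 7 of the 10 genes had a higher mean in mavrilimumab. In monocytes Nlrc5 was at 28.2 CPM in vehicle IgG 2 against 106 and 50.2, and the log2 fold change ran from 0.41 ± 0.41 for Psmb9 (edgeR adjusted p = 0.80) to 1.45 ± 0.66 for Nlrc5 (0.619), beside 0.452% of all genes called and 516 at an unadjusted p under 0.05. Without the cells rich in S100a8 and S100a9 the monocyte median of the 10 genes was 0.68.

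**Figure D5:**
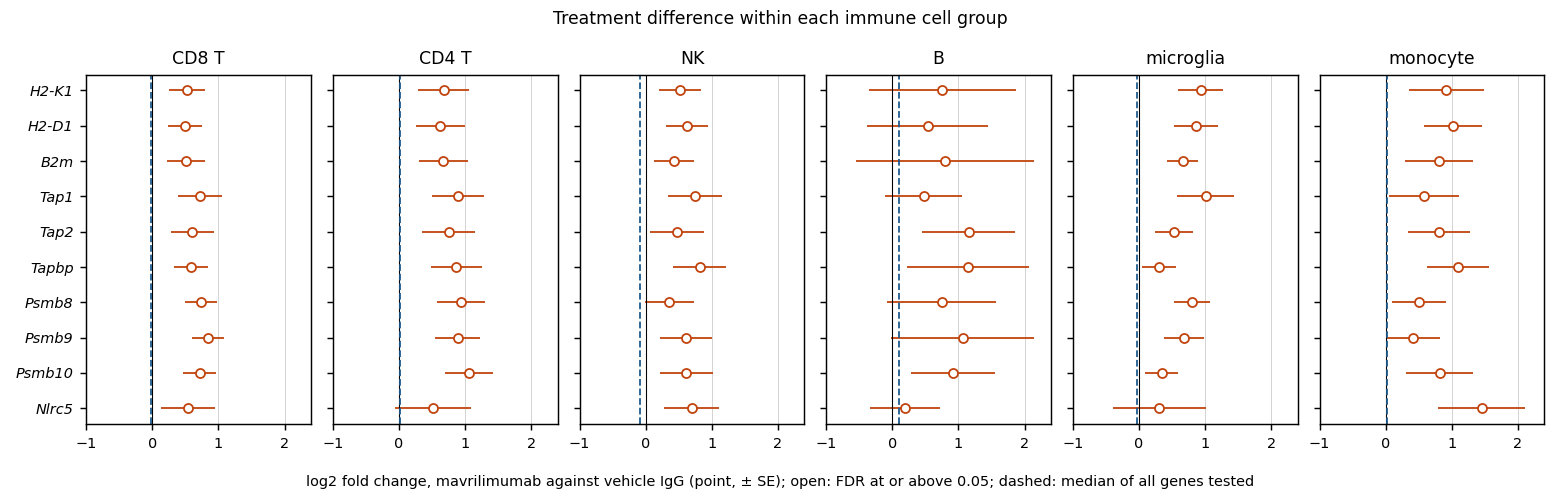
Log2 fold change of each gene between mavrilimumab and vehicle IgG in 6 immune groups (point, with its SE), all open because no FDR was under 0.05, with the median of all genes tested as a dashed line. All 10 points lie to the right of 0 in each panel.

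All 10 fitted values were positive in all 6 groups, with medians of 0.59 in CD8 T cells, 0.81 in CD4 T cells, 0.61 in NK cells, 0.78 in B cells, 0.67 in microglia and 0.81 in monocytes, beside -0.09 to 0.09 over all genes. These cell groups came from the same 4 libraries, so the 6 medians are not independent. On the TMM-scaled levels, the mavrilimumab values lay above the vehicle values with no overlap for 9 genes in CD8 T cells (17.9% of all genes), 9 in CD4 T cells (17.3%), 10 in NK cells (25.6%), 7 in B cells (33.6%), 9 in microglia (15.7%) and 10 in monocytes (36.6%). In plain CPM the numbers were 3 in B cells (11.5% of all genes) and 9 in monocytes (31.8%), beside those given above for the other groups. Nlrc5 turned negative in CD4 T cells without mavrilimumab 1 (-0.29), in microglia without vehicle IgG 2 (-0.38) or without mavrilimumab 1 (-0.11), and in B cells with no UMI of another lineage (-0.04).

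Markers of other cell types also differed between these libraries. Neural markers were high in the immune cells of vehicle IgG 2. The 7 neural markers, all detected, summed to 707 CPM in its B cells, 862 in its monocytes and 1496 to 1690 in its CD8 T cells, CD4 T cells, NK cells and microglia, against 7343 in its neural or tumour cells. In the immune groups of the other libraries the sum was 0 to 64.3 CPM, with all 7 at 0 in the NK cells of mavrilimumab 1. Microglia markers were highest in the T cells of vehicle IgG 1. The 6 markers, with 4 to 6 detected, summed to 3051 CPM in its CD8 T cells. The sum was 517 in those of vehicle IgG 2, 776 in mavrilimumab 1 and 1111 in mavrilimumab 2. In CD4 T cells the sums were 2401, 420, 771 and 1141 CPM in the same order. In cells with no UMI of another lineage the median log2 fold change of the 10 genes was 0.47 in CD8 T cells, 0.56 in CD4 T cells, 0.52 in B cells and 0.53 in microglia, with 0 of 10 called. With the ambient profile subtracted it was 0.46 in CD8 T cells, 0.79 in CD4 T cells and 0.40 in microglia. The share subtracted was the lowest that any marker list gave. In vehicle IgG 2 it was 2.42% in CD8 T cells and 12.5% in CD4 T cells, both from erythroid markers. This need not remove the neural RNA of those cells. The neural markers gave the share in the microglia of vehicle IgG 2 (28.3%) and the CD8 T cells of vehicle IgG 1 (24.7%).

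The 6 monocyte markers (Ccr2, Ly6c2, Plac8, F13a1, Chil3 and Ms4a4c) were together higher in the mavrilimumab libraries, with 4 to 6 of 6 detected and F13a1 or Chil3 at 0 in some sums. In microglia they summed to 42.5 and 55.5 CPM in the vehicle IgG libraries and 176 and 150.7 in the mavrilimumab libraries, and in CD4 T cells to 200 and 175 against 631 and 446. In CD8 T cells they summed to 1368 and 1042 CPM against 2284 and 1517. The part of these markers in the treatment differences was not tested.

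The treatment difference in neural or tumour cells was set against that in CD8 T cells by an interaction term in the fit over all sums. The neural side has 1 library per treatment and is assumed to vary like the other cell groups, so the adjusted p-values rest on the spread of those groups and compare single neural libraries. With edgeR 0 of the 10 genes passed and 0 had an unadjusted p under 0.05, where 3.37% of all genes passed. The fitted difference of log2 fold changes ran from -0.02 ± 0.72 for Psmb9 (edgeR adjusted p = 1) to 0.76 ± 0.42 for Tap1 (0.476). The fitted difference was positive for 9 of the 10 genes, with a median of 0.24 beside -0.11 over all genes. With every gate on its own it was positive for 2, with a median of -0.13 beside -0.40 over all genes, so its direction depends on the gating. DESeq2 called Tap1 alone (1.11, DESeq2 adjusted p = 0.0497, beside 1.08% of all genes), and limma-voom none. With DESeq2's size factors the median of all genes moved up by 0.317 on the log2 scale, and Psmb9 moved from -0.02 to 0.31.

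Other genes of the pathway were compared with neural or tumour cells in the same fit. Over all genes tested, 20.0% were higher in CD8 T cells and 20.4% in microglia, and 4222 and 3289 of the 14004 genes were lower. Of 10 nonclassical class I genes, 8 were higher in CD8 T cells, among them H2-T23 (4.13 ± 0.27) and H2-Q7 (4.53 ± 0.48), while Mr1, which presents vitamin metabolites, fell by 1.23 ± 0.42. In microglia 8 were higher and Cd1d1, which presents lipids, fell by 2.02 ± 0.60. Of 7 other genes of peptide supply and loading, 4 were higher in CD8 T cells: the proteasome activator subunits Psme1 (2.50 ± 0.19) and Psme2 (1.88 ± 0.18), the peptide trimming enzyme Erap1 (1.92 ± 0.18) and the tapasin relative Tapbpl (3.07 ± 0.44). The general chaperones of the endoplasmic reticulum Calr and Canx fell by 1.20 ± 0.30 and 0.89 ± 0.19 in the same comparison.

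The constitutive proteasome subunits went the other way. Psmb6 and Psmb7 were lower in CD8 T cells (-0.54 ± 0.17 and -0.53 ± 0.15), with Psmb5 at -0.19 ± 0.18, and all 3 were lower in microglia, from -0.68 for Psmb6 to -0.64 for Psmb5. Of 8 regulators of the pathway, 3 were higher in CD8 T cells and 3 in microglia, against 20.0% and 20.4% of all genes, and 0 were lower. The interferon regulatory factor Irf1 was higher in CD8 T cells (1.46 ± 0.38), and Irf2 was higher in CD8 T cells (1.29 ± 0.20) and in microglia (1.41 ± 0.21). Nfkb1, an NF-kB subunit, was higher in microglia (1.84 ± 0.43).

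The 10 genes varied together over the 23 sums, which share libraries and depth. Over the 45 pairs of genes, Pearson's r of log2 CPM had a median of 0.840, from 0.468 for Tapbp with H2-K1 to 0.984 for Psmb8 with Psmb9. Over the 21 immune sums alone the median was 0.634, from 0.0199 for Psmb8 with B2m to 0.961 for Psmb8 with Psmb9. The genes whose levels followed the mean of the 10 most closely over all 23 sums, of 7745 genes, were the nonclassical class I gene H2-T23 (r = 0.955), the nucleic acid sensor Zbp1 (0.943), Sp100 (0.935), Trim12c (0.924) and Gvin1 (0.923). Over the 21 immune sums, of 7470 genes, they were H2-T22 (r = 0.926), H2-T23 (0.917), Zbp1 (0.881), Trim12c (0.878) and the RNA sensor Rigi (0.878). H2-T23 was at 16.8 and 42.2 CPM in the neural or tumour cells of vehicle IgG 2 and mavrilimumab 2 and at 338 to 780 CPM in CD8 T cells.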

How the data were processed

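Single-cell 5' gene expression was measured in 4 libraries of sorted tumour and brain cells, 2 vehicle IgG and 2 mavrilimumab. The deposited matrices hold raw UMI counts per gene and barcode, unfiltered, which the authors produced in Cell Ranger. Its version is 9.0.1 per the file headers, while the submitters' processing notes give 7.1.0 and also name Scanpy 1.8.2 and the build mm10. The TCR tables served only to compare barcodes and sample names.

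Cells had at least 1000 UMIs, 200 to 6000 genes and at most 10% mitochondrial UMIs. A cell entered a group when it passed exactly 1 of 7 gates, and 1.33% to 4.08% of cells passed several and were left out. No doublet caller was run. The gates were Cd3e with Cd8a and Cd8b1 (CD8 T), Cd3e with Cd4 (CD4 T), Ncr1 and Klrb1c (NK), Cd79a and Cd79b (B), P2ry12 and Tmem119 (microglia), Ccr2 and Ly6c2 with Lyz2 (monocyte), and Nnat and Mdk without Ptprc (neural or tumour). Counts were summed per library and group, and sums of under 20 cells were left out. Sums were fitted with edgeR 4.0.16 (R 4.3.3; TMM, filterByExpr, quasi-likelihood test, FDR 0.05), 1 fit per group for treatment and 1 joint fit for cell groups. Alternatives were DESeq2 1.42.0, limma-voom (limma 3.58.1), other scaling, filters, gates and ambient subtraction, and leaving out each library. Fits were tested on simulated data.

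The members and lists were chosen with earlier results of these data known. All 10 members are described; per treatment comparison the largest and smallest fitted change were named. A level is log2(CPM + 1) where correlated, among genes with a mean of at least 20 CPM. Some genes of the lists are not reported here.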

Additional observations from a re-analysis of the deposited data

How the results depend on the processing

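The treatment tests rest on 2 libraries against 2 or 1 against 2, and the neural or tumour ratios carry counting error only. Leaving out single libraries moved the treatment medians over 0.44 to 0.88 in CD8 T cells (0.83 without vehicle IgG 1, 0.88 without mavrilimumab 2), 0.50 to 1.27 in CD4 T cells (1.27 without vehicle IgG 1) and 0.45 to 0.90 in microglia (0.45 without mavrilimumab 1, 0.90 without mavrilimumab 2). The cause was not tested. The number of the 10 genes called in microglia went from 0 to 6 without vehicle IgG 1, and that for microglia against monocytes from 5 to 3 without mavrilimumab 2 (range 3 to 6), and for CD8 against CD4 T cells from 0 to 1 without mavrilimumab 1.

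In NK cells limma-voom called 7 of 10, and the median was 0.594 with no filter, 0.587 with limma-voom, 0.623 with every gate on its own and 0.631 with ambient RNA subtracted. In microglia it was 0.973 with every gate on its own and 0.399 with ambient RNA subtracted. In B cells the median ran from 0.525 to 1.18 over all settings. CD8 against CD4 T cells gave 1 call with DESeq2's size factors, DESeq2, no UMI of other lineages and at least 2000 UMIs, and 2 with limma-voom. DESeq2 gave 1 call for the interaction. Treatment values that changed sign were Nlrc5 in microglia without mavrilimumab 1 (-0.11) and without vehicle IgG 2 (-0.38), Nlrc5 in CD4 T cells without mavrilimumab 1 (-0.288, with values up to 1.25 without vehicle IgG 1), Nlrc5 in B cells with no UMI of other lineages (-0.0419). The interaction was negative for 8 of 10 genes with every gate on its own, 7 of which (B2m, H2-D1, H2-K1, Nlrc5, Psmb10, Psmb8 and Tapbp, -0.35 to -0.0014) had been positive. Nlrc5 and Psmb10 turned negative with no filter on low counts (-0.058 and -0.021) and without S100a8 and S100a9 cells (-0.13 and -0.084), and Nlrc5 with no UMI of other lineages (-0.56). The interaction of Psmb9 turned positive with DESeq2's size factors (0.312), DESeq2 (0.313), limma-voom (0.0274), no UMI of other lineages (0.168), at least 2000 UMIs (0.163) and ambient RNA subtracted (0.35). In neural or tumour cells with no UMI of 5 microglia markers the ratios of Psmb9 (0.958) and Nlrc5 (0.805) fell below 1.

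Counts over all genes varied more. With no filter on low counts, 372 genes passed in CD8 T cells, 546 in CD4 T cells, 1911 in NK cells, 454 in B cells, 8 in microglia and 389 in monocytes. DESeq2 called 23 in CD8 T cells, 228 in NK cells, 50 in B cells and 10 in microglia, and limma-voom 2621 in NK cells and 0 in monocytes. In microglia 1473 passed without vehicle IgG 1 and 216 without vehicle IgG 2. In monocytes 107 passed with every gate on its own and 11 with ambient RNA subtracted.

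The labels do not tie the replicate numbers to a shared mouse, pool or day. Same-numbered libraries deviated together in CD8 T cells (r = 0.399), CD4 T cells (0.146) and microglia (0.377), with 2 pairs only. A replicate block called 0 of the 10 genes in each, with medians of 0.59, 0.84 and 0.66, and 235 genes overall in microglia. No blocked fit was made for NK cells, B cells or monocytes, which lack vehicle IgG 1. Fits in NK cells, B cells and monocytes without vehicle IgG 2 or either mavrilimumab library, and the interaction without vehicle IgG 2 or mavrilimumab 2, could not be made. NK cells had too few cells for the fits with no UMI of other lineages or at least 2000 UMIs, and monocytes for the former. Against neural or tumour cells, 8 to 10 of the 10 genes passed under every alternative run. The alternatives without S100a8 and S100a9 cells and without cells holding microglia markers were chosen after seeing the data.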

Other observations

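Microglia of vehicle IgG 1 had a long lower tail for the 10 genes together, an observation made after the values were seen. Their 561 cells had a median of 7.01 UMIs of the list per 1000, with a 25th percentile of 1.07 and a 10th percentile of 0.373. Microglia of the other 3 libraries had 10th percentiles of 2.12 (vehicle IgG 2), 2.59 (mavrilimumab 1) and 3.47 (mavrilimumab 2). Of the microglia of vehicle IgG 1, 12 (2.14%) held no UMI of any of the 10 genes, against 2 of 359, 1 of 204 and 5 of 679 in those libraries.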
